A study of Mus musculus with 7 samples.

Results

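The integrin and laminin genes of the mouse lung were examined in bleomycin-challenged mice with and without hyperbaric oxygen (HBO). Members were the protein-coding genes of the deposited count table whose GENCODE vM21 symbol names an integrin alpha chain, an integrin beta chain, the beta-like gene Itgbl1 or a laminin alpha, beta or gamma chain. The rule uses no measured value, and it found 38 of 55401 genes: 18 integrin alpha chains, 8 integrin beta chains, Itgbl1 and 11 laminin chains. Lamb4 was not analysed here.

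All mice were male C57BL/6, 6 to 8 weeks old and 20 to 25 g, and all received the antibiotic bleomycin, which damages lung cells and leads to fibrosis. The 4 mice of the BLM group had bleomycin without HBO, and the 3 mice of the BLM+HBO group breathed oxygen at 2.5 ATA for 90 min per day on 14 consecutive days from day 7. Lungs were taken on day 21 and each mouse gave 1 library. The 2 sources used here differ on whether the BLM mice were placed in an unpressurised chamber or left untreated, and since both groups carry the bleomycin injury, neither gives the level of an uninjured lung. Lung markers were present in every mouse, where AT2 cell genes such as Sftpc summed to between 7760 and 24400 CPM and AT1 cell genes such as Ager to between 3260 and 4930 CPM.

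Integrins are heterodimers of an alpha and a beta chain that span the cell membrane and tie the cytoskeleton to the matrix outside or to other cells. The alpha chain largely sets the ligand: some bind collagen, some bind laminin, some bind the RGD sequence of fibronectin, vitronectin and the latent TGF-beta complex, and the leukocyte family binds cell-surface ligands during trafficking. Laminins are cross-shaped trimers of an alpha, a beta and a gamma chain that form the sheet of the basement membrane, and in the fibrotic lung the alpha v integrins are known for releasing active TGF-beta from its latent complex.

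Promoter sequence was available for 6 of the 11 members that differed between the groups at an unadjusted P below 0.05, and it is shown so that the letters searched for can be seen beside the expression values. The sequences are RefSeq promoters on GRCm38.p6, 5′ to 3′ on the strand of the gene, and they end at the start of the GENCODE gene or, for Itga5 and Itga8, short of it. They lie at chr2:83724147-83724396 on the plus strand for Itgav, chr16:33829415-33829664 on the plus strand for Itgb5, chr15:103366792-103367041 on the minus strand for Itga5, chr2:12301945-12302194 on the minus strand for Itga8, chr15:102231945-102232185 on the minus strand for Itgb7 and chr12:31265043-31265233 on the plus strand for Lamb1. Capitals mark a match on either strand to the hypoxia response core ACGTG or GCGTG, the AP-1 motif TGAGTCA, the PU.1 core GAGGAA, the RUNX motif TGTGGT or the GC box GGGCGG.
Itgav: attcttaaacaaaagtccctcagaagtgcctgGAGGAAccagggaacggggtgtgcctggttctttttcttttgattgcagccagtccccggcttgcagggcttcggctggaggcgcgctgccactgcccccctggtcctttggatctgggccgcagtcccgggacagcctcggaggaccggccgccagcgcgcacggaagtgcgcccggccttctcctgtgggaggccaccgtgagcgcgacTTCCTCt
Itgb5: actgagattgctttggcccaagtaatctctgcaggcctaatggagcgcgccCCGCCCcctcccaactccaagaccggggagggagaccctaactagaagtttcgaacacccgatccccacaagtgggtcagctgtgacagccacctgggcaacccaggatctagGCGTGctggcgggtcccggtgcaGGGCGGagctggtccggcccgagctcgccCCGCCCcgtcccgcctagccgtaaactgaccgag
Itga5: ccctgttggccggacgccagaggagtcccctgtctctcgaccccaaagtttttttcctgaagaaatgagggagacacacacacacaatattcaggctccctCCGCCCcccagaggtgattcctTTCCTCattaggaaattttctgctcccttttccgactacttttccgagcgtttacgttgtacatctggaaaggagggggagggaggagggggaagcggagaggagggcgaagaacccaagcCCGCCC
Itga8: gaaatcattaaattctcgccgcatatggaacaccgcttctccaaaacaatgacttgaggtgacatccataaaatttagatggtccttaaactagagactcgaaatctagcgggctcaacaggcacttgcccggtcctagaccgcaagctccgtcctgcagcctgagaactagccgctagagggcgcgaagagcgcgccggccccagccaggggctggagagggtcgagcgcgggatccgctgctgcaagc
Itgb7: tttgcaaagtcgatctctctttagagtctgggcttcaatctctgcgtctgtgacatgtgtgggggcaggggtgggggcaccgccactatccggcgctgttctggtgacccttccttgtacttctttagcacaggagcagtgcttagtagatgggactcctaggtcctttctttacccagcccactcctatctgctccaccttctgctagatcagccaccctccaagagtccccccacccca
Lamb1: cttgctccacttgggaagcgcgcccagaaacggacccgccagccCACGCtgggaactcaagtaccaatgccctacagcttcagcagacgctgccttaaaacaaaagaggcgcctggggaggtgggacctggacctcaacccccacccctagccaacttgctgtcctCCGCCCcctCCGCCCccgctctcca

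Of the 38 members, 24 matched the promoter table, with 27 promoters. In the 250 bases before the RefSeq start, the hypoxia response core stood in 6 of the 27 promoters, against 38.6% of all 32851 promoters, and among the printed genes it stood in Itgb5 and Lamb1. The PU.1 core stood in 13 of 27 against 23.3% of all, the GC box in 10 against 32.7%, the RUNX motif in 2 against 14% and the AP-1 motif in 1, that of Itgax, against 4.46%. The printed windows of Itga8 and Itgb7 held none of the 5 motifs. These matches describe letters in a window and say nothing on binding.

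Every member had a read in every mouse, with 5 reads of Itgad as the lowest count of any member, and all 38 were among the 17465 genes tested. The libraries summed to between 18157161 and 26365969 counts, and member reads took between 0.491% and 0.653% of a library. On the first principal component BLM+HBO 2 lay at -0.996, next to the BLM mice at -47.6 to -6.08, while the other BLM+HBO mice lay at 54.8 and 37.8. A level is a CPM value, the gene's count scaled to the TMM-normalized library size, and levels of different genes are compared only as CPM per kilobase of exon. In bulk lung RNA a lower level can mean fewer cells of a type or less RNA per cell, and these cannot be told apart.

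At the study's thresholds, a fold change above 1.5 at an unadjusted P below 0.05, edgeR's quasi-likelihood test called 2 of the 38 members, Itga7 lower and Itgb7 higher in BLM+HBO. That is 5.26% of the members against 6.29% of all genes tested, so the members were called at about the background share (2.89% of all genes were lower and 3.4% higher). DESeq2 called the same 2 members at these thresholds, and 6.72% of all genes. At an unadjusted P below 0.05 alone, 11 of 38 (28.9%) passed against 10.7% of all genes, 7 lower (5.54% of all genes were lower) and 4 higher (5.11% of all genes were higher). The lower genes included the matrix-binding integrin chains Itgb3, Itgav, Itgb5, Itga5 and Itga7 and the laminin chain Lamb1, and the 4 higher genes were Itga8, Itgal, Itgae and Itgb7. No member and none of the 17465 genes passed a Benjamini-Hochberg adjusted P below 0.05 with edgeR, where the lowest adjusted P was 0.423. DESeq2 and limma also gave 0 members at that level, and DESeq2 gave 0.733% of all genes. The 4 BLM and 3 BLM+HBO values did not overlap for 3 of 38 members (7.89%), against 8.77% of all genes, and among them Itga8 and Itgae were higher in every BLM+HBO mouse. Of all genes 4.05% were higher and 4.72% lower in this way.

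**Figure D1:**
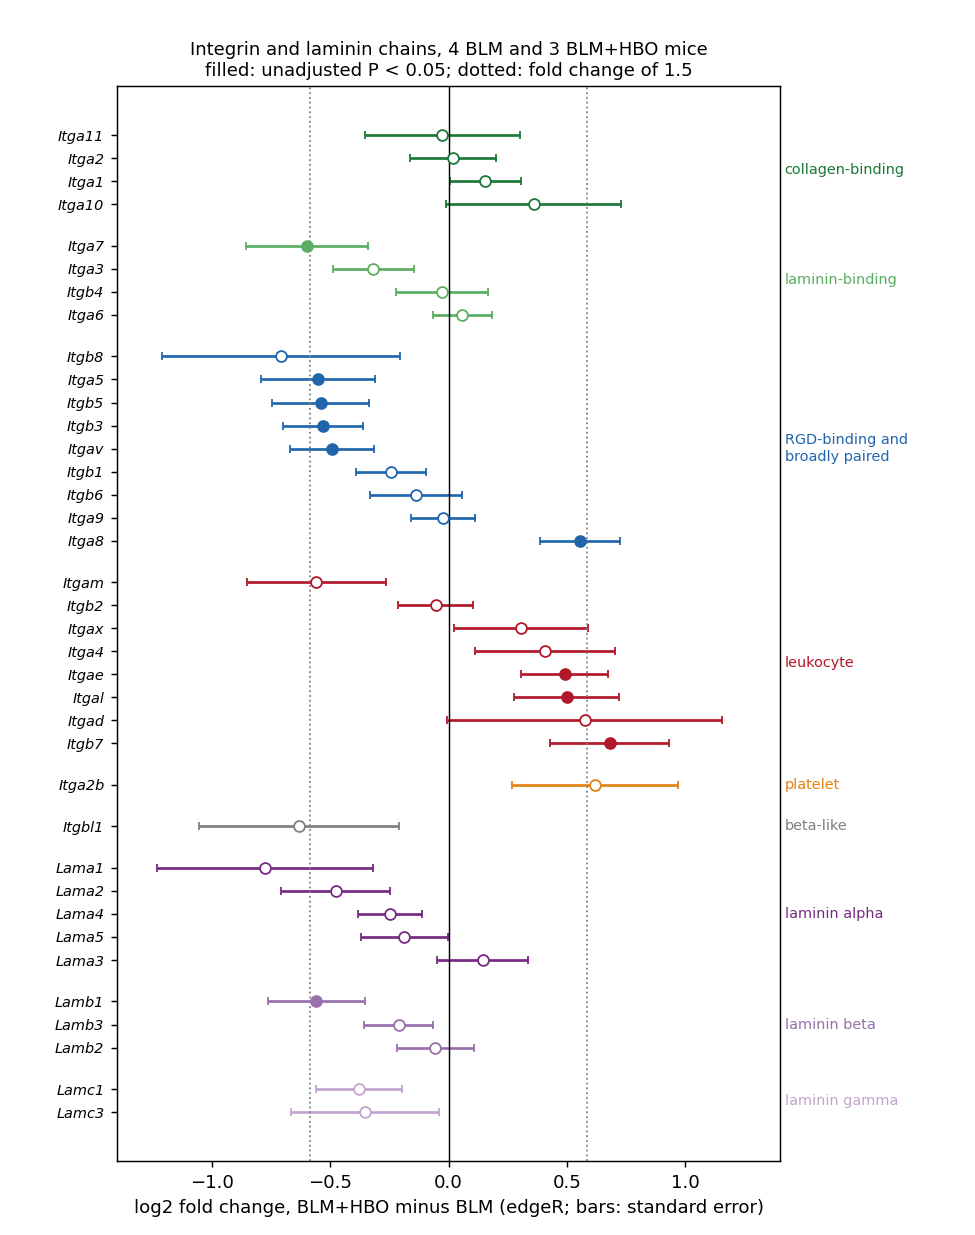
Log2 fold change of BLM+HBO against BLM for 37 chains (horizontal axis; edgeR estimate with its standard error as the bar), grouped by family, with dotted lines at a fold change of 1.5 and filled points at an unadjusted P below 0.05. The RGD-binding and laminin chains lie mostly left of 0 and 6 of the 8 leukocyte chains lie right of it.

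Ranked per kilobase, the lung expressed Itgb1 above every other chain. Itgb1, the beta chain shared by the collagen, laminin and fibronectin receptors, stood at 298 ± 39.6 CPM per kilobase in BLM (SD, n = 4) and 252 ± 25.0 in BLM+HBO (SD, n = 3), with overlapping groups. Next came Itga3, the alpha chain of the epithelial laminin receptor, at 87.4 ± 10.6 and 70.1 ± 15.4 CPM per kilobase. Itgb5 stood at 76.4 ± 15 and 52.6 ± 13.8 CPM per kilobase, and the leukocyte beta chain Itgb2 at 73.0 ± 7.70 and 70.3 ± 15.2. For Itga3, Itgb5 and Itgb2 the groups overlapped. The collagen receptor alpha chains were far lower, led by Itga1 at 9.29 ± 1.77 and 10.4 ± 0.685 CPM per kilobase, and Itgb8, Itgad, Itga10 and Itga11 stayed below 1 CPM per kilobase on average in both groups.

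**Figure D2:**
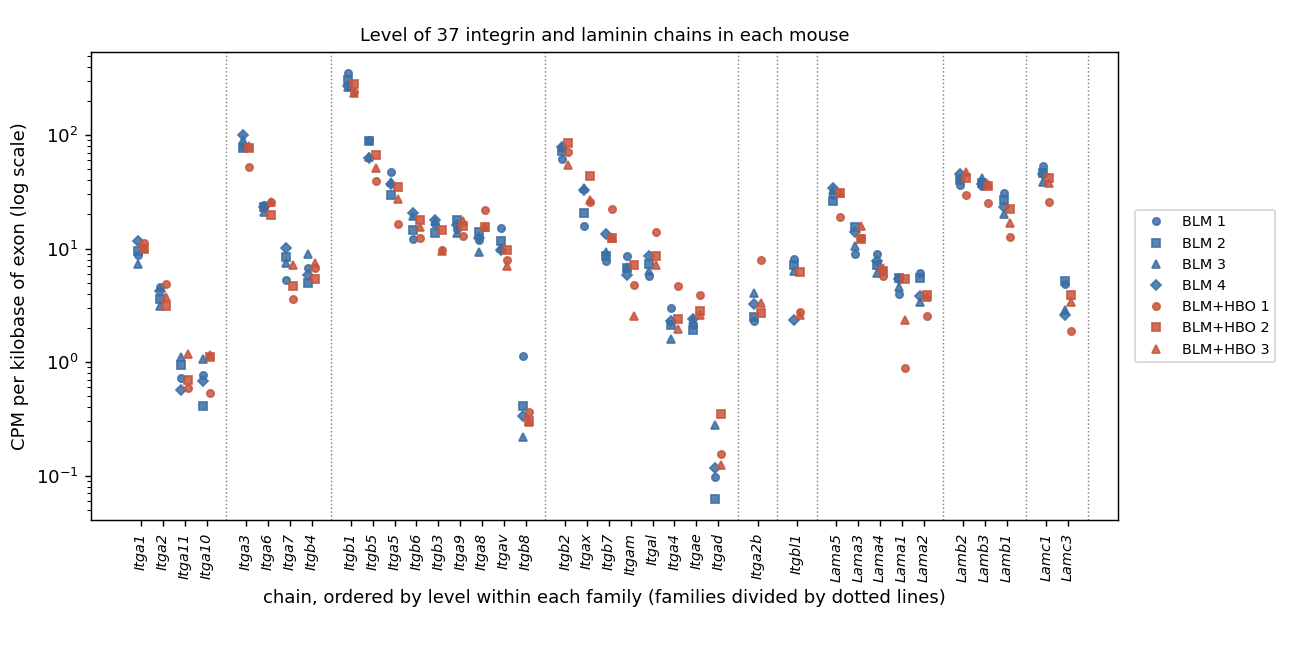
Level of 37 chains in each mouse as CPM per kilobase of exon (vertical axis, log scale), ordered by level within each family, with BLM mice in blue and BLM+HBO mice in red. Itgb1 is the highest chain in every mouse, and the lowest is Itgad in 5 mice and Itgb8 in BLM 3 and BLM+HBO 2.

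The RGD-binding and broadly paired chains held 5 of the 11 members at an unadjusted P below 0.05, 4 lower and 1, Itga8, higher. Of all genes tested 5.54% were lower and 5.11% higher at that P. The median log2 fold change of these 9 chains was -0.49, against 0.01 over all genes tested. A value below 0 was found for 8 of the 9 chains and for 48.8% of all genes tested. Without BLM replicate 1 the median was -0.26 with 2 lower chains, without BLM+HBO replicate 1 it was -0.31 with 1 and without BLM+HBO replicate 3 it was -0.39 with 0, where all 7 mice gave 4.

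Itgb3, the beta chain of the alpha v beta 3 vitronectin receptor and of the platelet fibrinogen receptor, lies at chr11:104608000-104670476. It measured 97.2, 80.5, 103 and 105 CPM in BLM mice 1 to 4 and 57.3, 86.5 and 56.3 CPM in BLM+HBO mice 1 to 3. BLM+HBO 1 and 3 lay below every BLM mouse and BLM+HBO 2 lay above BLM 2. The log2 fold change was -0.53 (SE 0.17, unadjusted P = 0.0114), and the adjusted P in edgeR's quasi-likelihood test was 0.423, with a range over the alternatives of 0.0412 to 0.802. The unadjusted P stayed below 0.05 in 6 of the 7 fits that left out a mouse, and without BLM+HBO replicate 2 Itgb3 was the sole member to pass the adjusted threshold.

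Itgav, the alpha v chain that pairs with Itgb3, Itgb5, Itgb6 and Itgb8 to bind latent TGF-beta or vitronectin, lies at chr2:83724397-83806916. It measured 162, 125, 108 and 104 CPM in BLM and 85.6, 105 and 75.0 CPM in BLM+HBO. Only BLM+HBO 2 reached into the BLM range. The log2 fold change was -0.49 (SE 0.18, unadjusted P = 0.0207), kept below 0.05 in 5 of 7 fits without a mouse.

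Among the partners of Itgav, Itgb5 (chr16:33829665-33949338), a vitronectin-binding beta chain, measured 319, 316, 226 and 225 CPM in BLM and 140, 238 and 183 CPM in BLM+HBO. Again BLM+HBO 1 and 3 lay below every BLM mouse and BLM+HBO 2 did not. Its log2 fold change was -0.54 (SE 0.20, unadjusted P = 0.0258), below 0.05 in 3 of 7 fits without a mouse. Itgb6, the epithelial beta chain of the TGF-beta activating receptor, differed by -0.14 on the log2 scale (SE 0.20, unadjusted P = 0.500), with 87.0 to 146 CPM in BLM and 87.8 to 126 CPM in BLM+HBO. Itgb8, the other TGF-beta activating beta chain, was scarce at 2.42 to 12.5 CPM in BLM and 3.30 to 3.99 CPM in BLM+HBO. Its log2 fold change of -0.71 (SE 0.50, unadjusted P = 0.189) rested on the 12.5 CPM of BLM 1, and without BLM replicate 1 it was -0.0044.

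Itga5, the alpha chain of the fibronectin receptor alpha 5 beta 1 (chr15:103344286-103366763), measured 233, 147, 191 and 184 CPM in BLM and 81.3, 171 and 134 CPM in BLM+HBO. BLM+HBO 2 lay inside the BLM range and the other BLM+HBO mice below it. Itga5 had a log2 fold change of -0.55 (SE 0.24, unadjusted P = 0.0449), below 0.05 in 2 of 7 fits without a mouse. Its partner Itgb1 had a log2 fold change of -0.24 (SE 0.15, unadjusted P = 0.132), from 1433, 1243, 1088 and 1097 CPM in BLM and 986, 1144 and 953 CPM in BLM+HBO. Itga9, which binds tenascin-C and osteopontin, differed by -0.02 (SE 0.14).

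Itga8 went the other way. This alpha chain (chr2:12106632-12301922), known from alveolar fibroblasts and smooth muscle, binds the RGD sequence of nephronectin with Itgb1. It measured 88.3, 104, 69.1 and 92.1 CPM in BLM and 162, 114 and 113 CPM in BLM+HBO, so that every BLM+HBO mouse lay above every BLM mouse. The log2 fold change was 0.55 (SE 0.17, unadjusted P = 0.00879), and Itga8 was the member that kept an unadjusted P below 0.05 in all 7 fits that left out a mouse. The adjusted P in edgeR's quasi-likelihood test was 0.423, and over the alternatives it ran from 0.0625 to 0.802. The fibroblast genes moved in both directions beside it, with Tcf21 higher (log2 fold change 0.70, unadjusted P = 0.0181) and Pdgfra, Dcn and Lum lower, and the lower genes numbered 1 and the higher 0 without BLM+HBO replicate 1. Their part in the Itga8 difference was not tested.

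**Figure D3:**
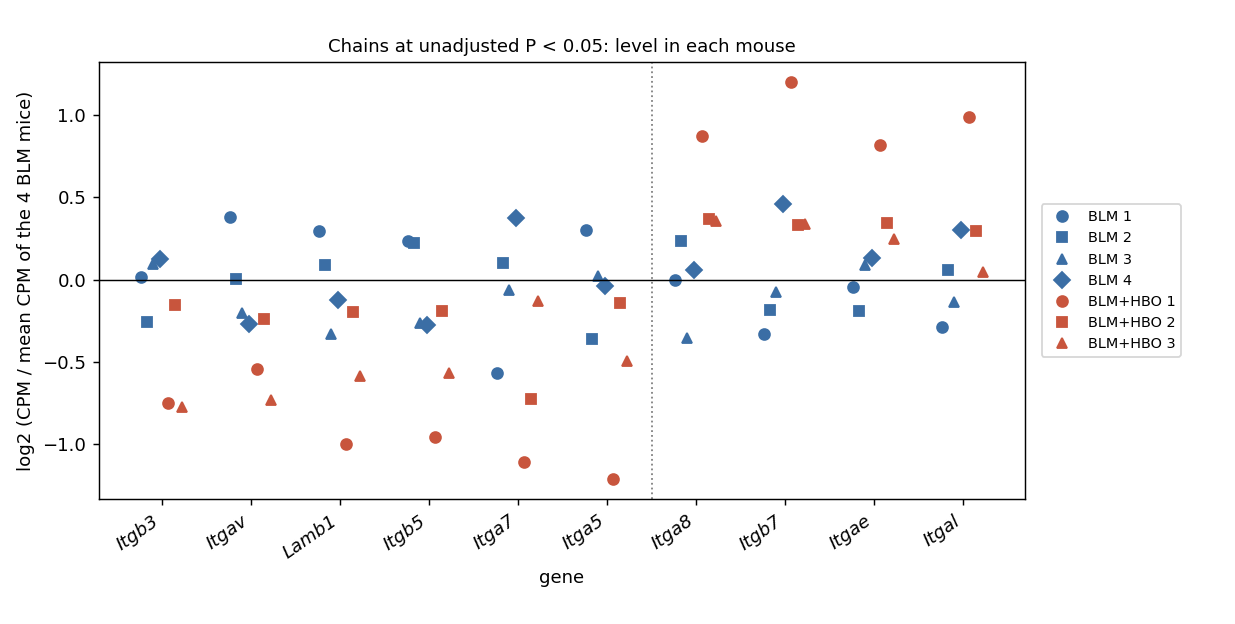
Level of 10 chains at an unadjusted P below 0.05 in each mouse, as the log2 ratio to the mean CPM of the 4 BLM mice (vertical axis), with chains lower in BLM+HBO left of the dotted line and chains higher in BLM+HBO right of it. BLM+HBO 1 (red circle) is the farthest from 0 for 8 of the 10 chains, and BLM+HBO 2 (red square) is the closest of the BLM+HBO mice to the BLM mice for 5 of the 6 lower chains.

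The collagen-binding alpha chains showed no member at an unadjusted P below 0.05, and their median log2 fold change was 0.09. Itga1, the type IV collagen receptor chain of mesenchymal cells and capillaries, measured 163, 177, 136 and 215 CPM in BLM and 207, 183 and 188 CPM in BLM+HBO, with a log2 fold change of 0.16 (SE 0.15). Itga2, Itga10 and Itga11 had log2 fold changes of 0.02 (SE 0.18), 0.36 (SE 0.37) and -0.03 (SE 0.33). Of the exonic bases of Itga10, 33.5% overlap another gene, so its level is uncertain.

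Among the laminin-binding chains Itga7 differed at the study's thresholds. Itga7 (chr10:128933818-128958282) is the laminin receptor chain of skeletal, heart and smooth muscle, and it measured 42.5, 67.7, 60.4 and 81.6 CPM in BLM and 29.2, 38.1 and 57.6 CPM in BLM+HBO. The groups overlapped, since BLM 1 lay between BLM+HBO 2 and 3. Itga7 had a log2 fold change of -0.60 (SE 0.26, unadjusted P = 0.0447), below 0.05 in 2 of 7 fits without a mouse. Muscle markers were set beside it. Of the heart muscle genes 7 of 8 were higher in BLM+HBO at an unadjusted P below 0.05, with a sum of 58.9 to 169 CPM in BLM and 150 to 629 CPM in BLM+HBO, and 4 were higher without BLM+HBO replicate 1. Of the 5 smooth muscle genes 1, Acta2, was lower (log2 fold change -0.76, unadjusted P = 0.00649), with 2 of 5 above 0, a list median of -0.34 and a sum of 601 to 907 CPM in BLM and 496 to 735 CPM in BLM+HBO. Their part in the Itga7 value was not tested. Itga3 differed by -0.32 (SE 0.17, unadjusted P = 0.0950), from 462, 438, 523 and 572 CPM in BLM and 300, 439 and 462 CPM in BLM+HBO. Itga6 and Itgb4, the chains of the hemidesmosome receptor, differed by 0.06 (SE 0.12) and -0.03 (SE 0.19).

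Of 16 matrix ligands of these receptors, 10 were lower at an unadjusted P below 0.05, beside 5.54% of all genes tested. Of the 10, 7 had a fold change above 1.5, beside 2.89% of all genes, and the list median log2 fold change was -0.66. The number lower was 2 without BLM replicate 1, 5 without BLM replicate 2, 3 without BLM+HBO replicate 1 and 2 without BLM+HBO replicate 3. Without BLM+HBO replicate 2, 13 were lower and 1 was higher. The list median over the fits without a mouse ran from -1.04 to -0.45. Osteopontin, encoded by Spp1 and bound by Itgav and Itga9 receptors, measured 4952, 4215, 3941 and 3820 CPM in BLM and 703, 3054 and 994 CPM in BLM+HBO (log2 fold change -1.42, SE 0.44, unadjusted P = 0.00975). All BLM+HBO mice lay below all BLM mice. The fibronectin gene Fn1, ligand of Itga5, missed the threshold at -1.08 (SE 0.52, unadjusted P = 0.0678), with 4866, 3863, 3272 and 3224 CPM in BLM and 510, 3609 and 1282 CPM in BLM+HBO, where BLM+HBO 2 lay inside the BLM range. Past both thresholds with the smallest P after Spp1 came Ltbp1, which binds latent TGF-beta to the matrix (-0.59, unadjusted P = 0.0265), the Itga9 ligand Tnc (-1.46, unadjusted P = 0.0279) and the collagen genes Col1a1 (-1.20, unadjusted P = 0.0300), Col3a1 (-0.73, unadjusted P = 0.0361) and Col1a2 (-0.98, unadjusted P = 0.0409). Npnt, the nephronectin gene and ligand of Itga8, had a log2 fold change of 0.43 (SE 0.21, unadjusted P = 0.0666).

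Of the 24 integrin adaptors and adhesion kinases, Lims2 and Tns2 were higher and Bcar1 was lower at an unadjusted P below 0.05, and none passed the fold threshold. Their median log2 fold change was -0.05 and they ranged from -0.31 to 0.35. Tln1, the talin that switches integrins on, differed by -0.13 (SE 0.13) and Ptk2, the focal adhesion kinase, by -0.04 (SE 0.09).

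Leukocyte integrin chains had a median log2 fold change of 0.45, with 6 of 8 above 0 and 3 higher at an unadjusted P below 0.05. Of all genes tested 48.8% had a log2 fold change below 0, and 5.11% were higher at that P. The 3 became 0 without BLM replicate 2 or BLM+HBO replicate 1, and 1 without BLM replicate 1 or BLM replicate 3. Itgb7 (chr15:102215995-102231944), the beta chain of the gut-homing receptor with Itga4 and of the E-cadherin receptor with Itgae, measured 21.6, 23.9, 25.7 and 37.3 CPM in BLM and 62.3, 34.1 and 34.2 CPM in BLM+HBO. BLM+HBO 1 was highest and BLM 4 lay above the other BLM+HBO mice, so the groups overlapped. Its log2 fold change was 0.68 (SE 0.25, unadjusted P = 0.0229), below 0.05 in 3 of 7 fits without a mouse.

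Itgae (chr11:73090583-73147446), the alpha E chain of intraepithelial T cells and a class of dendritic cells, measured 9.80, 8.85, 10.8 and 11.1 CPM in BLM and 17.8, 12.9 and 12 CPM in BLM+HBO. Every BLM+HBO mouse lay above every BLM mouse. Its log2 fold change was 0.49 (SE 0.18, unadjusted P = 0.0236), below 0.05 in 5 of 7 fits without a mouse.

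Itgal (chr7:127296260-127335138), the alpha chain of the lymphocyte receptor LFA-1, measured 37.6, 47.8, 41.8 and 56.7 CPM in BLM and 91.2, 56.4 and 47.5 CPM in BLM+HBO. BLM+HBO 1 stood apart and the other BLM+HBO mice lay within the BLM range. Its log2 fold change was 0.50 (SE 0.22, unadjusted P = 0.0494), below 0.05 in 3 of 7 fits without a mouse. Itga4, the alpha chain of the VCAM-1 receptor, had a log2 fold change of 0.41 (SE 0.30, unadjusted P = 0.198), with 41.9, 29.8, 22.5 and 32.4 CPM in BLM and 65.3, 33.5 and 27.5 CPM in BLM+HBO.

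The myeloid chains did not share a direction. Itgam, the alpha chain of complement receptor 3 on neutrophils and macrophages, had a log2 fold change of -0.56 (SE 0.29, unadjusted P = 0.0877), from 29.7 to 43.5 CPM in BLM and 12.7 to 35.9 CPM in BLM+HBO. Its level is understated, since 68.7% of its exonic bases overlap the read-through gene Gm49368, where reads were left out of both genes. Itgax, the CD11c chain of dendritic cells and alveolar macrophages, had a log2 fold change of 0.31 (SE 0.28), and the scarce Itgad one of 0.58 (SE 0.58). Of the exonic bases of Itgad, 19.7% overlap other genes, so its level is uncertain. Itgb2, the beta chain of Itgal, Itgam, Itgax and Itgad, measured 190, 221, 242 and 238 CPM in BLM and 216, 260 and 168 CPM in BLM+HBO (log2 fold change -0.05, SE 0.16). Split after the values were seen, the chains Itgal, Itgae, Itga4 and Itgb7 had a median of 0.49 with 4 of 4 above 0, and Itgam, Itgax and Itgad a median of 0.31 with 2 of 3 above 0.

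Leukocyte markers differed by cell type beside these chains. All 5 B cell genes were higher in BLM+HBO at an unadjusted P below 0.05 (median log2 fold change 1.05, summed level 51.9 to 101 CPM in BLM and 99.9 to 210 CPM in BLM+HBO). All 5 NK cell genes were higher as well (median 1.79, 5.23 to 19.1 CPM and 19.2 to 77.3 CPM). Without BLM+HBO replicate 1 the B cell list had 2 genes that passed (median 0.55) and the NK cell list had 1 (median 0.95). Of 6 dendritic cell genes 2 were higher (median 0.66, 76.2 to 112 CPM and 109 to 141 CPM). The number was 5 without BLM replicate 4, and 1 on leaving out BLM replicate 1, 2 or 3 or BLM+HBO replicate 1. None of the 6 T cell genes passed (median 0.34, 33.8 to 53.7 CPM and 35.9 to 80.0 CPM) and neither did any of the 6 pan-leukocyte genes (median 0.16, 906 to 1020 CPM and 775 to 1230 CPM) or the 6 neutrophil genes (median 0.07, 160 to 223 CPM and 96.0 to 497 CPM). The neutrophil result turned without BLM+HBO replicate 1, the mouse at 497 CPM, where 6 of 6 genes were lower and the median was -0.89. Without BLM+HBO replicate 3, 3 T cell and 3 pan-leukocyte genes were higher. Of 6 monocyte and interstitial macrophage genes the 3 C1q genes were lower (list median -0.54, 938 to 1530 CPM and 534 to 915 CPM), and of 5 tested alveolar macrophage genes Marco and Chil3 were lower (list median 0.29, 642 to 2040 CPM and 600 to 761 CPM). No defining marker in these leukocyte lists was at 0 in every mouse. The part of these markers in the integrin values was not tested.

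The lymphocyte chains were also set against marker genes within each mouse. The ratio of Itgb7 to Ptprc, the pan-leukocyte CD45 gene, was 1 to 1.75 in BLM and 1.45 to 1.97 in BLM+HBO per kilobase, that of Itgal to Ptprc 0.734 to 1.14 and 0.978 to 1.15, and that of Itgae to Ptprc 0.275 to 0.388 and 0.274 to 0.418, all with overlap.

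**Figure D4:**
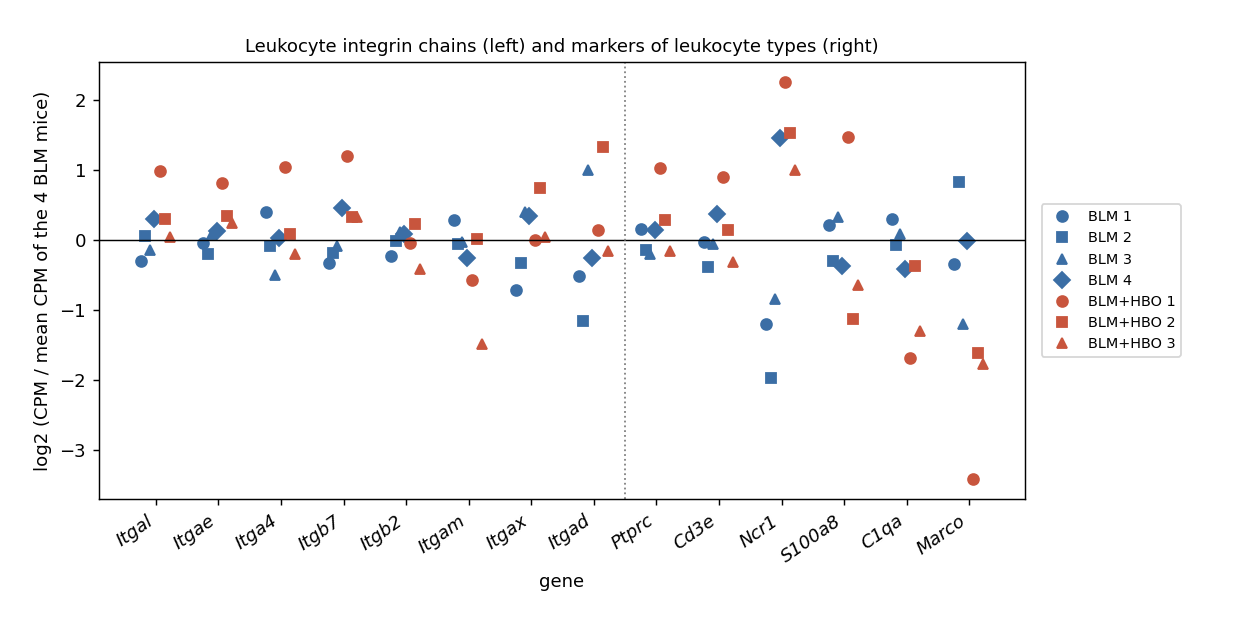
Level of the 8 leukocyte integrin chains (left of the dotted line) and of 6 leukocyte marker genes (right) in each mouse, as the log2 ratio to the mean CPM of the 4 BLM mice (vertical axis). BLM+HBO 1 is the highest mouse for Itgal, Itgae, Itga4 and Itgb7 and for Ptprc, Cd3e, Ncr1 and S100a8, and Marco is lower in every BLM+HBO mouse than in every BLM mouse. Of all genes tested 4.72% are lower in this way, and 3 of the 5 tested alveolar macrophage genes have a log2 fold change above 0.

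Of 6 tested cell-surface ligands of the leukocyte chains 1, Jam2, was lower at an unadjusted P below 0.05, and the median log2 fold change was -0.19. No ligand passed without BLM replicate 1, BLM replicate 2, BLM+HBO replicate 1 or BLM+HBO replicate 3. Vcam1, ligand of Itga4, differed by -0.34 (SE 0.23), Icam1, ligand of Itgal, by -0.27 (SE 0.13, unadjusted P = 0.0788), and Cdh1, the E-cadherin ligand of Itgae with Itgb7, by 0.13 (SE 0.15). Madcam1, the ligand of Itga4 with Itgb7, had at most 0.474 CPM and did not pass the filter on low counts.

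Itga2b, the alpha chain of the platelet fibrinogen receptor, measured 12.5, 13.6, 22.0 and 17.6 CPM in BLM and 43.0, 14.7 and 18.2 CPM in BLM+HBO. The high value was BLM+HBO 1 alone, and without that mouse the log2 fold change of 0.62 (SE 0.35, unadjusted P = 0.111) was -0.0012. Of 5 tested platelet genes Ppbp and Gp1ba were higher (1 gene without BLM+HBO replicate 1, 4 without BLM+HBO replicate 2), and the summed level of the list was 107 CPM in BLM+HBO 1 against 30.2 to 45.4 CPM in the other 6 mice, with Gp1bb at 0 in every mouse. Itgb3, the platelet partner of Itga2b, was lowest in BLM+HBO 1 and 3. Itgbl1, a secreted beta-like protein without a known alpha partner, had a log2 fold change of -0.63 (SE 0.42), from 10 to 34.4 CPM in BLM and 11 to 26.4 CPM in BLM+HBO.

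Of the 11 laminin chains 2 were lower at an unadjusted P below 0.05, beside 5.54% of all genes, and 0 passed both thresholds. The 2 became 0 without BLM replicate 1, BLM+HBO replicate 1 or BLM+HBO replicate 3, and 5 without BLM replicate 3 or BLM+HBO replicate 2. In value, 10 of 11 had a log2 fold change below 0, against 48.8% of all genes tested, with a median of -0.35. Lamb1 (chr12:31265234-31329644), the beta chain of the mesenchymal and endothelial laminins, measured 308, 268, 200 and 230 CPM in BLM and 126, 219 and 167 CPM in BLM+HBO. BLM+HBO 2 lay above BLM 3 and the other BLM+HBO mice below every BLM mouse. The log2 fold change was -0.56 (SE 0.21, unadjusted P = 0.0225), below 0.05 in 4 of 7 fits without a mouse.

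The epithelial chains Lama3 and Lamb3 had log2 fold changes of 0.14 (SE 0.19) and -0.21 (SE 0.15), and neither passed the threshold. Of 7 genes of transitional and basal epithelium 5 were lower in BLM+HBO at an unadjusted P below 0.05 (list median -0.91, summed level 502 to 803 CPM in BLM and 372 to 534 CPM in BLM+HBO), and their part in the laminin values was not tested. The number lower was 2 without BLM+HBO replicate 1, 1 without BLM+HBO replicate 3 and 3 without BLM replicate 3 or BLM replicate 4.

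Of the remaining chains, Lamc1, the gamma chain of most laminins, measured 446, 386, 319 and 378 CPM in BLM and 215, 350 and 317 CPM in BLM+HBO, with a log2 fold change of -0.38 (SE 0.18, unadjusted P = 0.0646). Lama2, the laminin alpha chain of muscle and mesenchyme, differed by -0.48 (SE 0.23, unadjusted P = 0.0654) and Lama4, the endothelial alpha chain, by -0.25 (SE 0.13, unadjusted P = 0.0956). Lama5, the main alpha chain of the alveolar and airway basement membrane and the highest alpha chain per kilobase, measured 335, 302, 377 and 392 CPM in BLM and 217, 355 and 354 CPM in BLM+HBO. Its log2 fold change was -0.19 (SE 0.18), and BLM+HBO 1 alone lay below the BLM range. Lamb2, the highest beta chain per kilobase at 40.9 ± 3.86 in BLM (SD, n = 4) and 39.4 ± 9 in BLM+HBO (SD, n = 3), measured 221, 243, 254 and 278 CPM in BLM and 179, 253 and 286 CPM in BLM+HBO (log2 fold change -0.06, SE 0.16). Lama1, a chain known mainly from the embryo, had the largest difference in value at -0.77 (SE 0.46, unadjusted P = 0.122), with 38.8, 53.7, 44.6 and 52.6 CPM in BLM and 8.52, 52.0 and 22.6 CPM in BLM+HBO. For Lama1, BLM+HBO 2 lay within the BLM range and BLM+HBO 1 and 3 lay below it. Lamc3 differed by -0.35 (SE 0.31).

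**Figure D5:**
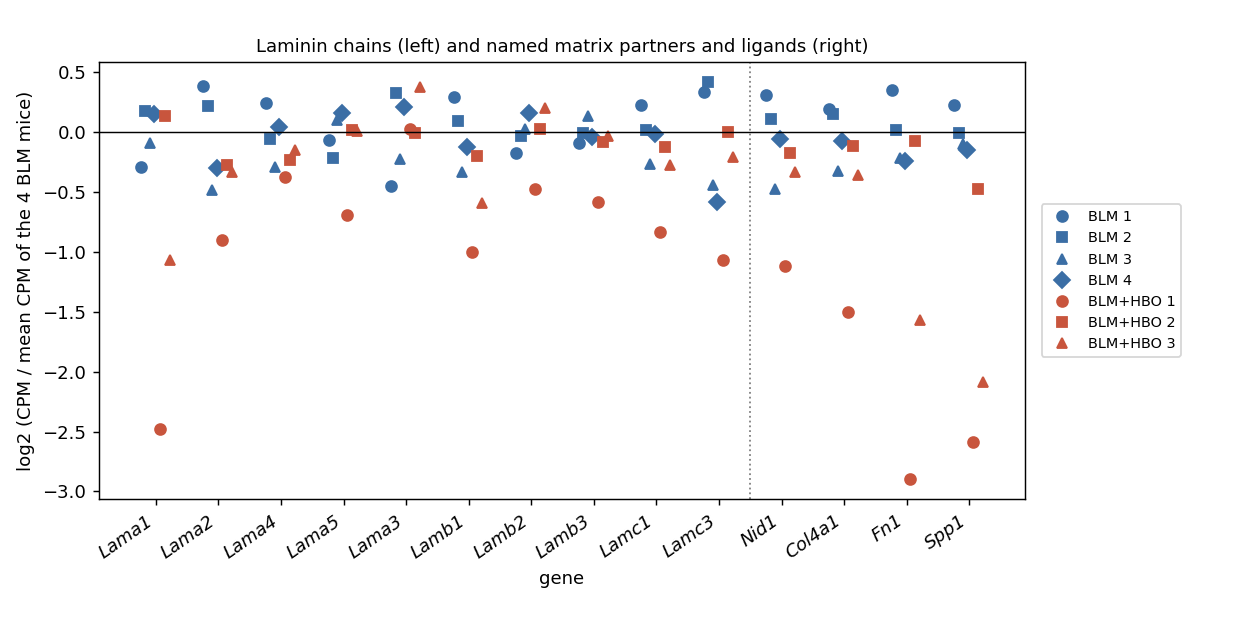
Level of 10 laminin chains (left of the dotted line) and of 4 matrix genes (right) in each mouse, as the log2 ratio to the mean CPM of the 4 BLM mice (vertical axis). BLM+HBO 1 (red circle) is the lowest mouse for 9 of the 10 laminin chains and BLM+HBO 2 (red square) lies within the BLM range for all 10.

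The other parts of the basement membrane were also mostly below 0 in value, and few passed. Of 16 partners and other laminin receptors, Smoc2 (log2 fold change -1.06, unadjusted P = 0.0171) and Nid2, the laminin-binding nidogen-2 gene (-0.54, unadjusted P = 0.0361), were lower and the type IV collagen gene Col4a6 (0.46, unadjusted P = 0.0105) was higher, with a list median of -0.23. Without BLM+HBO replicate 1 the 2 lower became 0, and without BLM+HBO replicate 2 they became 7. Col4a1, the main type IV collagen chain, measured 3044, 2965, 2134 and 2535 CPM in BLM and 940, 2467 and 2081 CPM in BLM+HBO (log2 fold change -0.55, SE 0.30, unadjusted P = 0.0962). Dag1, the dystroglycan gene, and Bcam, a receptor for Lama5, differed by -0.26 (SE 0.18) and -0.09 (SE 0.17).

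Set side by side, the 17 matrix-binding integrin chains had a median log2 fold change of -0.14 (12 below 0 and 5 above), the 11 laminin chains -0.35 and the 8 leukocyte chains 0.45, against 0.01 over all genes tested. The difference between the lists was not tested, since the members are not replicates of a condition. The summed level of the matrix-binding chains was 692, 624, 581 and 603 CPM per kilobase in BLM and 469, 577 and 515 in BLM+HBO, so that the highest BLM+HBO mouse lay just under the lowest BLM mouse. Itgb1 made up the largest part of this sum, with means of 298 CPM per kilobase in BLM and 252 in BLM+HBO and overlapping groups. The laminin chains summed to 309, 295, 278 and 305 CPM per kilobase in BLM and 180, 279 and 262 in BLM+HBO, where BLM+HBO 2 lay above BLM 3. The leukocyte chains summed to 105, 120, 140 and 143 CPM per kilobase in BLM and 146, 162 and 108 in BLM+HBO, with overlap. The median over the leukocyte chains of the log2 ratio to the BLM mean was 0.55, 0.33 and 0.05 in BLM+HBO mice 1 to 3. In BLM mice 1 to 4 it was -0.24, -0.1, 0.04 and 0.12, so BLM 4 lay above BLM+HBO 3. Over the matrix-binding chains this median was -0.36, -0.17 and -0.08 in BLM+HBO mice 1 to 3. In BLM mice 1 to 4 it was 0.07, 0.02, -0.12 and 0.02, so BLM 3 lay below BLM+HBO 3.

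The number of chains that passed depended on which mice were included. Without BLM+HBO replicate 1, 2 of 38 members had an unadjusted P below 0.05 (5.26%, against 5.7% of all genes in the same fit) and 0 passed both thresholds (3.7% of all genes). Without BLM+HBO replicate 2, 16 had an unadjusted P below 0.05 (42.1% against 15.9%) and 14 passed both thresholds (36.8% against 10.7%). The share of all genes moved with the mice as well. The leukocyte median was 0.24 without BLM+HBO replicate 1, and the matrix-binding median was -0.27 without BLM+HBO replicate 2. Over the 7 fits that left out a mouse the matrix-binding median ran from -0.27 to -0.08, the laminin median from -0.53 to -0.19 and the leukocyte median from 0.24 to 0.61, each on the same side of 0.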

How the data were processed

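Right lung lobe RNA of 4 BLM and 3 BLM+HBO mice was sequenced, with groups taken from the sample records. The authors prepared paired-end libraries with NEBNext Ultra, used Trim Galore for trimming and Hisat2 for mapping to GRCm38 (version 2.2.0 in the submitters' processing notes) and deposited raw counts per gene made with featureCounts at default settings. These settings do not use strand and leave out reads that overlap several genes or map to several places. The annotation release is not given in the sources used here. GENCODE vM21 gave a symbol to 55141 of the 55401 genes, with 54349 identifiers in the same version. Exonic bases shared with another gene were counted for each member: 11 members had some and 7 had over 5%.

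Libraries held between 18157161 and 26365969 counts. Each mouse gave 1 library and was taken as a replicate. P values weigh the group difference against the variation between these mice, estimated with information shared over genes. Each pair of libraries within a group differed by more than sampling noise (chi-square per gene at least 22.1 for genes whose joint count reached 20). Genes passing filterByExpr (minimum count 10, minimum total 15) were normalized by TMM and tested with edgeR 4.0.16 under R 4.3.3, by the quasi-likelihood test with BLM as the reference and a common biological coefficient of variation of 0.222. Benjamini-Hochberg adjustment ran over all 17465 genes, and SE is the absolute log2 fold change divided by the square root of F. The thresholds were those of the study (fold change over 1.5 at P below 0.05). The code was tested on simulated data. DESeq2 1.42.0 (the tool of the study), limma 3.58.1, RLE and upper-quartile factors, the replicate number as a block, the robust option, no low-count filter or 1 CPM in 3 mice as the filter, limits of P 0.01 or fold 2, and leaving out each mouse were the alternatives.

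The members, lists and tests were chosen with earlier results of these data known. Members at P below 0.05, members without overlap of the groups and the most abundant chain of each list were described in every mouse. From the pathway lists up to 6 genes past both thresholds, with Fn1, Spp1, Vcam1, Icam1, Cdh1 and Col4a1, were named. Npnt, Tln1, Ptk2, Lims2, Tns2, Bcar1, Jam2, Madcam1, Nid2, Col4a6, Dag1 and Bcam, the other members described in every mouse, the ratios to Ptprc, and the split of the leukocyte chains were chosen after the values were seen. Pathway and marker genes were listed by hand. Promoters came from RefSeq on GRCm38.p6, and 14 members had no entry. Values of some genes are not reported here and not drawn, though counts and medians of lists include them.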

Additional observations from a re-analysis of the deposited data

How the results depend on the processing

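Across the alternatives, members past both thresholds numbered 2 with all mice, 5 with limma-trend, 1 with upper-quartile factors, 5 with no filter on low counts, 1 with robust empirical Bayes, 0 at a fold change above 2 and 0 at P below 0.01. At an unadjusted P below 0.05 there were 11 members with all mice and 17 with no filter. Of all genes in the same fits, 6.29% passed both thresholds with all mice, 6.68% with limma-trend, 6.34% with upper-quartile factors, 5.9% with no filter and 5.99% with robust empirical Bayes, and 10.7% had an unadjusted P below 0.05 with all mice and 9.14% with no filter. Leaving out 1 mouse at a time gave 0 to 14 members past both thresholds, 2 to 16 at an unadjusted P below 0.05 and 0 to 1 at an adjusted P below 0.05, the highest in each case without BLM+HBO replicate 2. The number at an unadjusted P below 0.05 was 5 without BLM replicate 1, 6 without BLM replicate 2, 2 without BLM+HBO replicate 1 and 5 without BLM+HBO replicate 3, against 6.81%, 7.05%, 5.7% and 7.14% of all genes. The median log2 fold change ran from -0.27 to -0.08 for matrix-binding chains, from 0.24 to 0.61 for leukocyte chains and from -0.53 to -0.19 for laminin chains.

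With the replicate number as a block, 6 members passed both thresholds, beside 7.2% of all genes, and 1 of the 6 also passed without the block. No consistent pairing by number was seen, since same-numbered deviations correlated at -0.00797, -0.0660 and 0.161, and not every mouse correlated best with its own number. With so few mice in each group, these correlations cannot exclude a pairing.

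Direction turned for Itga9 with upper-quartile factors (0.0016). Without 1 mouse it turned for Itga11 (-0.38 to 0.16), Itga2 (-0.16 to 0.15), Itga2b (-0.0012 to 0.89), Itga4 (-0.05 to 0.63), Itga6 (-0.01 to 0.17), Itga9 (-0.13 to 0.09), Itgad (-0.01 to 1.16), Itgb2 (-0.22 to 0.09), Itgb4 (-0.14 to 0.15), Lama5 (-0.30 to 0.01) and Lamb2 (-0.21 to 0.11), none of them at an unadjusted P below 0.05 with all mice. Of the member values under the alternatives, 483 kept direction and side of the P threshold, 41 lost it, 24 gained it and 21 turned. The cause was not tested. The 3 BLM+HBO mice limit the precision, and the low counts of Itgad and Itgb8 limit theirs.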
